A study of Mus musculus with 15 samples.

Results

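The cytochrome P450 family was followed in whole mouse kidneys that did or did not express a PRCC-TFE3 fusion. Members were all genes whose symbol begins with Cyp and a digit and whose array entry was paired with exactly 1 gene symbol. This gave 98 of the 22180 genes tested, from 102 entries, in 16 families and 39 subfamilies, and 4 of the 98 are annotated pseudogenes. Where a member had more than 1 entry, as 4 did, the entry kept was the one brightest on average across the 15 arrays.

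P450 enzymes are heme-containing monooxygenases that take electrons from a reductase and insert oxygen into a substrate. In the kidney, most of all in the proximal tubule, they activate and degrade vitamin D, turn arachidonic acid into epoxides and hydroxylated products that act on salt transport and vascular tone, and oxidise steroids and foreign compounds. Several mouse kidney members are known to differ between the sexes.

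The mice carried a PRCC-TFE3 knock-in at Rosa26 behind a loxP-stop-loxP cassette, and Cre-positive (Cre+) animals also carried KSP-Cre, a transgene driven by the promoter of the tubule cadherin Cdh16. PRCC-TFE3 fuses a splicing-associated protein to TFE3, an MiT-family DNA-binding factor, and occurs in translocation renal cell carcinoma. Each array (Affymetrix Mouse Gene 2.0 ST) measured total RNA from the flash-frozen kidney of 1 mouse, with 4 Cre-negative (Cre-) and 4 Cre+ mice aged 4 months and 3 Cre- and 4 Cre+ mice aged 7 months. All groups carried the knock-in and none carried KSP-Cre without it, so an effect of the fusion and an effect of the Cre transgene cannot be told apart. Values are log2 RMA values, that is, background-corrected, normalised and summarised probe intensities, and a difference of 1 is a 2-fold change. Genes were compared with limma, p-values were adjusted by the Benjamini-Hochberg method over 22180 genes, and a gene was called at an adjusted p under 0.05. The number of arrays limits the precision, and since the series text counts mice, p-values measure the spread between animals.

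Array medians lay between 4.4 and 4.55. Tfe3 itself did not pass at 4 months (0.03, adjusted p = 0.92) or at 7 months (0.22, adjusted p = 0.14), so the label of a Cre+ array was not checked by the level of that gene. The labels give no sex. The mean of the 3 measured Y-linked genes was between 6.92 and 7.80 in 8 arrays and between 2.64 and 2.98 in 7 arrays, and every group held both kinds, 2 and 2 except for 2 high and 1 low in 7-month Cre- kidneys. Because several P450 values followed this split, values are given for both kinds of array where it matters. Markers of the labelled tissue were present, with the array means of 24 measured proximal tubule markers between 10.49 and 10.86 in Cre- kidneys.

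The 250 bases before the annotated start were read from RefSeq (GRCm38.p6) for the 3 members that rose in Cre+ kidneys, are described first and have an entry in the promoter table. A window of 250 bases before to 50 after the start was found for 72 of the 98 members. Capitals mark the letters CACGTG, an E-box of the kind MiT factors bind, and GCGTG or its reverse complement, the core of the element bound by the aryl hydrocarbon receptor. Cyp4v3 lies on chromosome 8 (minus strand, chr8:45333164-45333413), Cyp4f39 on chromosome 17 (plus strand, chr17:32452473-32452722) and Cyp1b1 on chromosome 17 (minus strand, chr17:79715062-79715311), each printed 5′ to 3′ on the strand of its gene.
Cyp4v3: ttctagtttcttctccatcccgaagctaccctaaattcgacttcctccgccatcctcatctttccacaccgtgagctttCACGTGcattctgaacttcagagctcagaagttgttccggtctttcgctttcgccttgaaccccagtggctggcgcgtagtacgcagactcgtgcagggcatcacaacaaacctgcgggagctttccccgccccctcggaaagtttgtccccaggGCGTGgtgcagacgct
Cyp4f39: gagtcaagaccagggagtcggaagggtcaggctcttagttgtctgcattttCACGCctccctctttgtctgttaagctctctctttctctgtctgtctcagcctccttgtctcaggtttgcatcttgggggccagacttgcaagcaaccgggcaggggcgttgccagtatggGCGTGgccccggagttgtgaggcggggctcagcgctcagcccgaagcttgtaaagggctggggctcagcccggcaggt
Cyp1b1: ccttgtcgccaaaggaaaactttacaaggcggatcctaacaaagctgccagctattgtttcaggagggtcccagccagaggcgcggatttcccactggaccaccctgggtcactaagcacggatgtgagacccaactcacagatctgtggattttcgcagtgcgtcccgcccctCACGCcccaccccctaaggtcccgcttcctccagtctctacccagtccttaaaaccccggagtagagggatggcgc

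The Cyp4v3 sequence held 1 CACGTG, whose first base lies 171 bases before the start, and 1 GCGTG at 16 bases before it. That of Cyp4f39 held no CACGTG and 2 GCGTG cores, at 199 and 78 bases before the start, and that of Cyp1b1 held 1 such core at 76 bases. Both motifs were searched on both strands of the whole windows, and CACGTG reads the same on either strand. CACGTG was present in 7.15% of all 32851 RefSeq windows and in 2 of 80 windows of P450 members (2.5%, Cyp4v3 and Cyp2j6), and its longer form TCACGTG, which overlaps it, in 3.77% of all windows. GCGTG was present in 32.4% of all windows and in 18 of the 80 (22.5%). A match describes letters in the window and nothing more.

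In Cre- kidneys 49 of the 98 members stood at background, taken as a mean under 4 over the 7 Cre- arrays. The share was 50% for the family and 34.7% for all genes tested. With limits of 3.5 and 4.5 the number was 41 and 59. Just under the limit stood Cyp8b1 at 3.87, Cyp17a1 at 3.90 and Cyp3a11 at 3.96, and just above it Cyp26c1 at 4.01, Cyp4f37 at 4.01 and Cyp1a1 at 4.03.

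All 7 Cyp3a members, all 5 Cyp2b members and 13 of 15 Cyp2c members were at background, the exceptions in Cyp2c being Cyp2c23 and Cyp2c55. The entry of Cyp2c55 that was not kept had a Cre- mean of 2.79. By contrast 1 of 4 Cyp2a members, 1 of 7 Cyp2j members, 2 of 6 Cyp4a members, 3 of 10 Cyp2d members and 3 of 10 Cyp4f members were at background. All 5 members of steroid hormone synthesis (Cyp11a1, Cyp11b1, Cyp11b2, Cyp17a1 and Cyp21a1) were under 4, and 4 of 6 measured adrenal cortex markers were too. The 10 members of the highest Cre- mean were Cyp2j5, Cyp2e1, Cyp4b1, Cyp4a31, Cyp2j11, Cyp2a4, Cyp2d26, Cyp24a1, Cyp2d12 and Cyp51, with means from 8.68 to 11.83. Brightness also depends on the probes of each gene, so no order of expression is read from it. At 4 months the number under 4 was 49 without and 52 with Cre, and at 7 months it was 51 and 53. Of the 49 members at background in Cre- kidneys 0 reached a mean of 4.5 in either Cre+ group.

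At 4 months 3 members rose in Cre+ kidneys and 0 fell. The rising share of all genes was 2.73% and the falling share 0.803%. Cyp4f39, a fatty acid hydroxylase known for making skin barrier lipids, rose by 2.11 (SE 0.19, 4.31-fold, adjusted p = 1.6e-06). Cyp1b1, which oxidises estrogens and polycyclic hydrocarbons and responds to the aryl hydrocarbon receptor, rose by 0.71 (SE 0.16, 1.64-fold, adjusted p = 0.015). Cyp39a1, an oxysterol hydroxylase of bile acid synthesis, rose by 0.62 (SE 0.16, 1.54-fold, adjusted p = 0.037). The same 3 genes were called at 7 months in the same direction, and the 4-month and 7-month comparisons share no array.

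Array by array, Cyp4f39 stood at 4.69, 4.4, 3.77 and 4.30 in 4-month Cre- kidneys and at 6.14, 6.32, 6.35 and 6.79 in 4-month Cre+ kidneys. At 7 months it stood at 4.22, 4.21 and 4.13 in Cre- and at 5.35, 5.25, 4.74 and 5.45 in Cre+ kidneys. Every Cre+ array was above every Cre- array at both ages, and every 4-month Cre+ array was above every 7-month Cre+ array. In Cre- kidneys the gene was near the background limit, with group means of 4.29 and 4.19.

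Cyp1b1 stood at 6.64, 6.67, 6.46 and 6.51 in 4-month Cre- kidneys and at 6.77, 7.22, 7.52 and 7.62 in 4-month Cre+ kidneys. At 7 months it stood at 6.25, 6.24 and 6.47 against 7.24, 6.78, 7.09 and 7.24, a rise of 0.77 (SE 0.17, adjusted p = 0.0028). The groups did not overlap at either age. For Cyp39a1 the 4-month values were 7.40, 7.56, 7.27 and 7.78 in Cre- and 7.60, 8.26, 8.24 and 8.38 in Cre+ kidneys, so the lowest Cre+ array lay within the Cre- range. At 7 months Cyp39a1 stood at 7.10, 7.03 and 7.48 against 8.34, 8.21, 8.39 and 8.31, with no overlap.

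The 4-month calls of Cyp1b1 and Cyp39a1 were not kept in all fits that left out 1 array. Cyp1b1 was at 0.68 without Cre- replicate 3, 0.63 without Cre+ replicate 3 and 0.60 without Cre+ replicate 4 (adjusted p = 0.055, 0.064 and 0.059), and Cyp39a1 was at 0.53 to 0.64 with adjusted p from 0.059 to 0.13 without Cre- replicate 1, 2 or 3 or Cre+ replicate 2, 3 or 4. Without Cre+ replicate 3, and likewise without Cre+ replicate 4, 1 member was called higher. Beside the 0 members called lower, 5 of 98 were lower at an unadjusted p under 0.05 in limma, and 3 in the plain linear model. Of all 22180 genes 1177 and 1149 were, so the 5 members are near the share of all genes. Centring each array on its median gave 3 higher and 1 lower, and for all genes 497 higher and 511 lower in place of 606 and 178, since it moved the median 4-month difference of all genes from 0.05 to -0.04.

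At 7 months 6 members rose and 18 fell in Cre+ kidneys. Over all genes 11.7% rose and 10.8% fell at that age. The family's median difference was -0.17, against -0.04 for all genes, and 66 of the 98 members were below 0. The 74 members that were not called lay between -2.30 (Cyp4a12a) and 1.31 (Cyp4a14), 48 of them below 0. Among the 47 members with a mean of at least 4 over the 15 arrays, 6 rose and 15 fell, where 16.6% of the 14585 genes of that brightness rose and 15% fell. Of the 51 dimmer members 0 rose and 3 fell. Over all 22180 genes 2597 rose and 2394 fell, and 2417 and 2182 of these were among the 14585 brighter genes. The 10.8% is therefore not the falling share of dimmer genes.

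**Figure D1:**
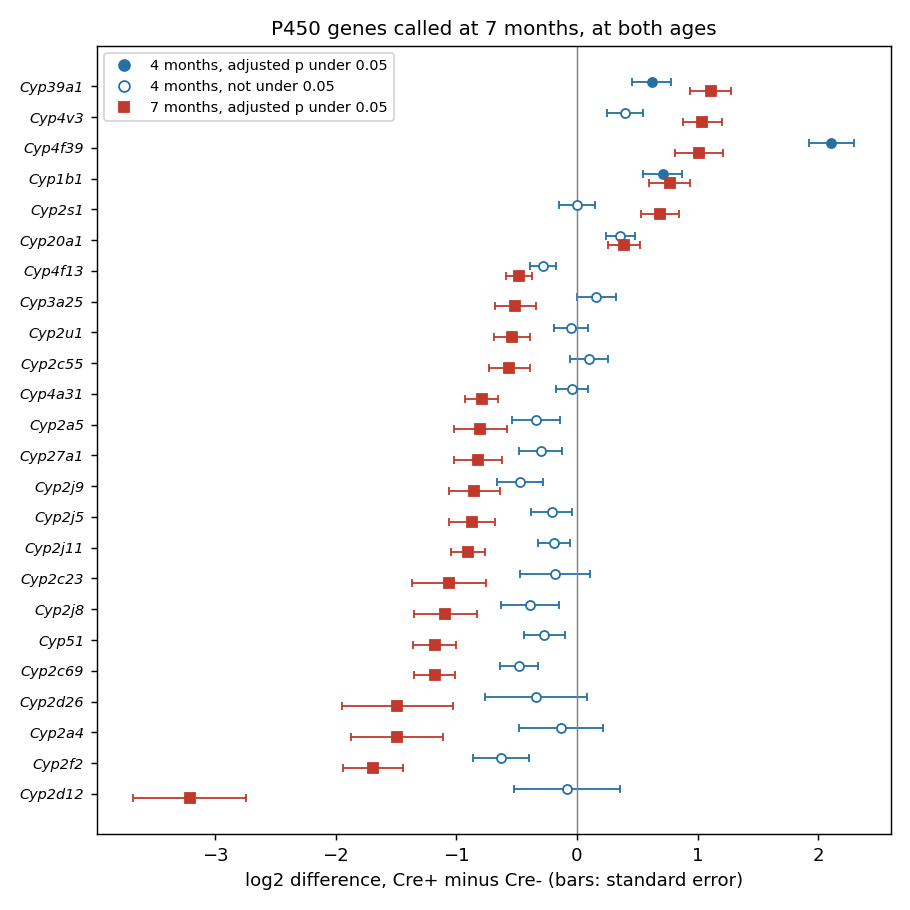
Log2 difference between Cre+ and Cre- kidneys, with its standard error, for the 24 members called at 7 months (squares) and for the same members at 4 months (circles, filled where called). Cyp4f39 is higher at 4 months (2.11) than at 7 months (1.01), and Cyp2d12 goes from -0.08 to -3.21.

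The 6 members that rose at 7 months have unlike roles. Besides Cyp39a1 (1.11, SE 0.17, adjusted p = 0.00013), Cyp4f39 (1.01, SE 0.20, adjusted p = 0.0012) and Cyp1b1, they were Cyp4v3, Cyp2s1 and Cyp20a1. Cyp4v3, the counterpart of a human fatty acid hydroxylase whose loss causes a crystalline retinal dystrophy, stood at 5.62, 5.40 and 6.07 in Cre- and at 6.81, 6.51, 6.80 and 6.82 in Cre+ kidneys, a rise of 1.04 (SE 0.16, 2.05-fold, adjusted p = 0.00015). Cyp2s1, an epithelial member that responds to the aryl hydrocarbon receptor, stood at 6.61, 6.55 and 6.11 against 7.16, 6.86, 7.42 and 7.01, a rise of 0.69 (SE 0.16, adjusted p = 0.0036). Neither gene overlapped between the groups at 7 months.

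Cyp4v3 had been at 0.40 at 4 months (adjusted p = 0.18), where its Cre+ values of 5.81, 6.37, 6.34 and 6.30 overlapped the Cre- values of 5.71, 5.79, 5.68 and 6.03. Cyp2s1 had been at 0.00 at 4 months. The difference between the ages did not pass for either gene (0.64 and 0.69, adjusted p = 0.16 and 0.11). Cyp20a1, an orphan enzyme with no settled substrate, rose by 0.39 (SE 0.13, adjusted p = 0.036), with overlapping groups of 7.21, 7.14 and 7.57 against 7.61, 7.48, 7.78 and 7.90. Its call was lost without Cre- replicate 1 or 2 (0.34 and 0.31, adjusted p = 0.12 and 0.17) and without Cre+ replicate 3 or 4 (0.36 and 0.32, adjusted p = 0.086 and 0.11).

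**Figure D2:**
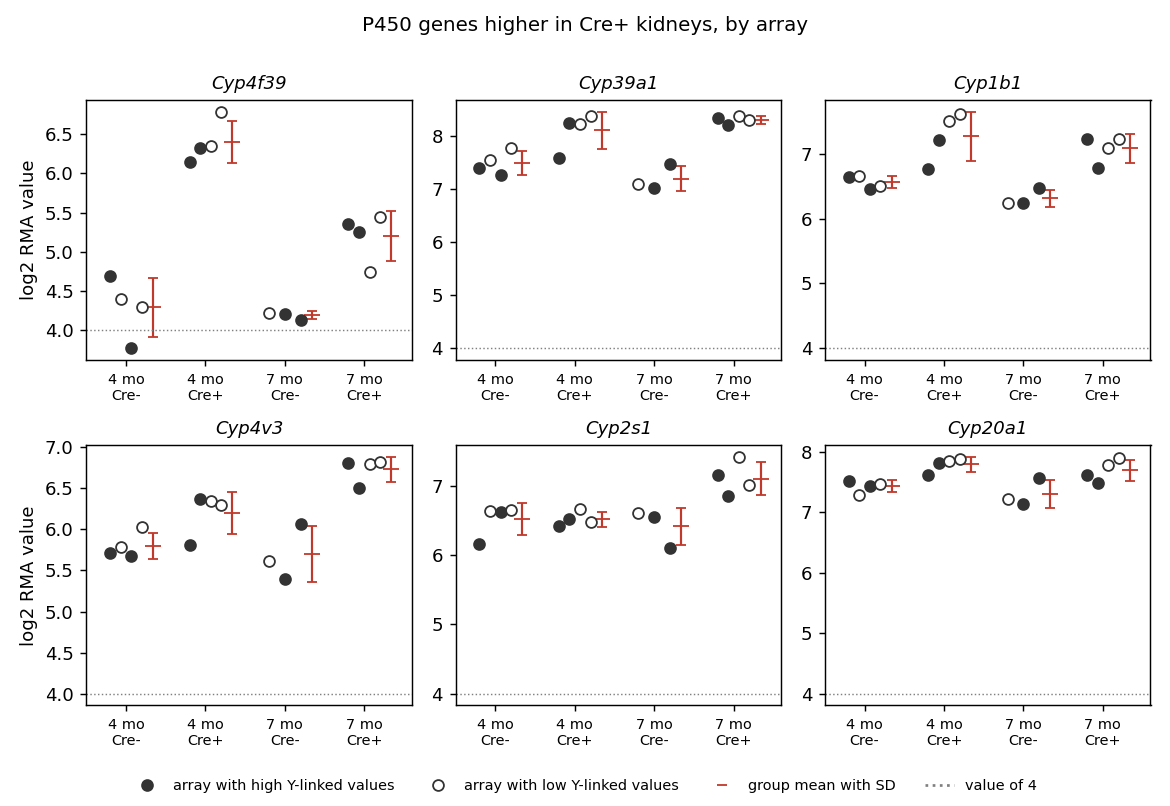
Log2 RMA values of the 6 members called higher in Cre+ kidneys at 7 months, with 1 point per mouse in the 4 groups, filled for arrays with high and open for arrays with low Y-linked values, and bars for the group mean and SD. The 7-month Cre+ points of Cyp39a1 lie between 8.21 and 8.39, above all 7-month Cre- points, and those of Cyp20a1 overlap them.

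In family 2, which makes up 49 of the 98 members, 13 fell (Cyp2r1 is counted with the vitamin D enzymes), beside a falling share of 10.8% for all genes. In the Cyp2j subfamily, which makes epoxides of arachidonic acid, 4 of 7 members fell and the subfamily's median difference was -0.87. The Cyp2a subfamily had 2 of 4 called lower (median -0.54), Cyp2c 3 of 15 (median -0.17) and Cyp2d 2 of 10 (median -0.25). In Cyp4a 1 of 6 fell (median -0.38), in Cyp3a 1 of 7 (median 0.10) and in Cyp2b 0 of 5 (median -0.15). Cyp4f had calls in both directions, 1 higher and 1 lower of 10 (median -0.02). With so few members, counts of 1 to 3 in Cyp2c, Cyp2d, Cyp3a, Cyp4a and Cyp4f are near the share of all genes. Close relatives such as Cyp2a4 and Cyp2a5, Cyp4a12a and Cyp4a12b or the Cyp2c and Cyp2d members are similar in sequence, and how far their probes cross-hybridise was not tested. Nor was it tested for Cyp4a31 and Cyp4a10, which another entry, not used here, names together.

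**Figure D3:**
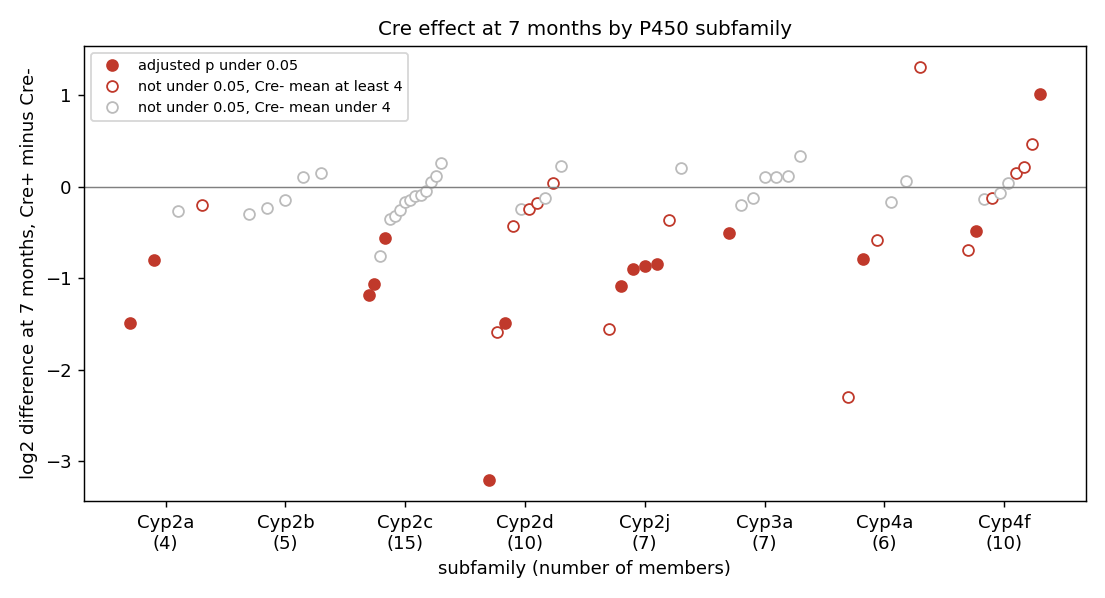
Log2 difference between Cre+ and Cre- kidneys at 7 months for each member of the 8 subfamilies with at least 4 members, filled where called, with a grey outline where not called and the Cre- mean was under 4. The 4 called Cyp2j members lie between -1.09 and -0.85, and all 5 Cyp2b members lie between -0.30 and 0.15.

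Cyp2d12 had the largest fall of any member. It stood at 8.70, 9.61 and 10.24 in 7-month Cre- kidneys and at 7.06, 6.09, 5.95 and 6.13 in 7-month Cre+ kidneys, a fall by 3.21 (SE 0.47, 9.23-fold, adjusted p = 9.1e-05). At 4 months the values were 9.56, 7.18, 9.02 and 7.92 in Cre- and 8.66, 8.72, 7.55 and 8.40 in Cre+ kidneys, a difference of -0.08 (SE 0.44). Each 7-month Cre+ array was thus below every other array of the series, and the 4-month groups overlapped throughout. The related Cyp2d26 stood at 9.95, 8.39 and 8.42 against 7.05, 6.55, 8.30 and 7.82 at 7 months, a fall by 1.49 (SE 0.46, adjusted p = 0.025) with groups that did not overlap by a narrow margin. That call was lost without Cre- replicate 1 (-0.97, adjusted p = 0.16), Cre+ replicate 1 (-1.36, adjusted p = 0.065) or Cre+ replicate 2 (-1.19, adjusted p = 0.08). Cre- replicate 1 was the only array of low Y-linked values in its group. With the mean of the Y-linked genes as a covariate in limma, the 7-month difference of Cyp2d26 was -1.68 (SE 0.18, adjusted p = 2.8e-06).

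**Figure D4:**
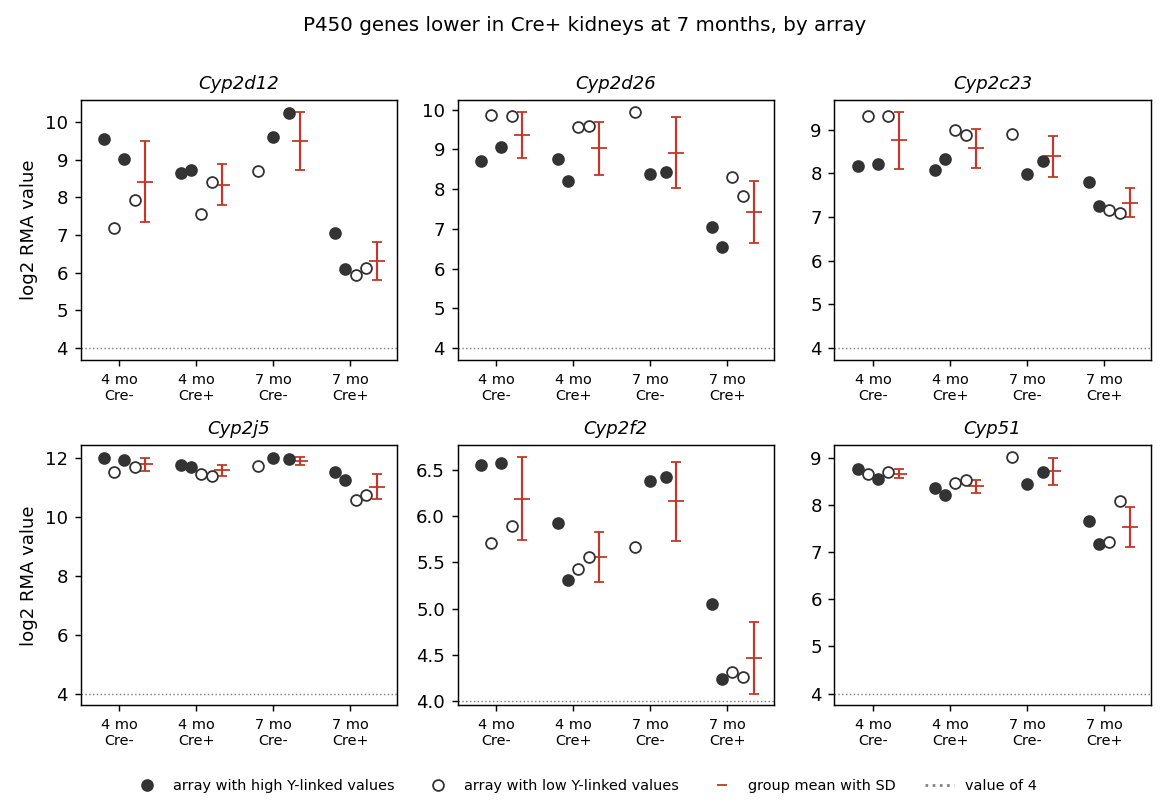
Log2 RMA values of 6 members called lower in Cre+ kidneys at 7 months, with 1 point per mouse in the 4 groups, filled for arrays with high and open for arrays with low Y-linked values, and bars for the group mean and SD. The 7-month Cre+ points lie below all 7-month Cre- points in each panel, from 5.95 to 7.06 for Cyp2d12, while the 4-month groups of these genes overlap except for Cyp51.

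Of the arachidonic acid epoxygenases, Cyp2j5 stood at 11.73, 11.99 and 11.95 in 7-month Cre- kidneys and at 11.52, 11.24, 10.59 and 10.76 in Cre+ kidneys. It fell by 0.87 (SE 0.19, 1.82-fold, adjusted p = 0.0026). The 2 Cre+ arrays with low Y-linked values were the lowest. Cyp2c23, the main renal epoxygenase of family 2c, stood at 8.90, 7.98 and 8.29 against 7.81, 7.25, 7.17 and 7.10 and fell by 1.06 (SE 0.31, adjusted p = 0.021). Its call was lost without Cre- replicate 1 (-0.80, adjusted p = 0.11) and without Cre+ replicate 3 or 4 (-1.01 and -0.98, adjusted p = 0.051 and 0.055). The difference of Cyp2c23 was -0.61 in arrays of high Y-linked values (adjusted p = 0.065) and -1.77 in those of low values, which include 1 Cre- array (adjusted p = 0.00034), and the test between the kinds of array did not pass (1.17, adjusted p = 0.23). Cyp2j11, Cyp2j8 and Cyp2j9 fell by 0.90, 1.09 and 0.85 (adjusted p = 0.00012, 0.0053 and 0.0065). Without Cre- replicate 2, Cyp2j9 was at -0.65 (adjusted p = 0.055).

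Among the steroid and xenobiotic members of family 2, Cyp2a4, a testosterone hydroxylase, stood at 9.56, 9.98 and 9.76 in 7-month Cre- and at 9.08, 8.88, 7.06 and 8.07 in Cre+ kidneys. It fell by 1.49 (SE 0.38, 2.81-fold, adjusted p = 0.0077), and all Cre+ arrays were below all Cre- arrays. Cyp2a5, which oxidises coumarin and nicotine, fell by 0.80 (adjusted p = 0.012) from a Cre- mean of 4.02, close to background, and was at -0.57 without Cre- replicate 2 (adjusted p = 0.092). Cyp2f2, known for activating naphthalene in the lung, stood at 5.67, 6.38 and 6.43 against 5.05, 4.24, 4.31 and 4.26 and fell by 1.69 (SE 0.25, adjusted p = 9.3e-05). The other entry of Cyp2f2, with a Cre- mean of 4.45, was at 0.07 at 7 months, so the entries of this gene disagreed. Cyp2u1 fell by 0.54 (adjusted p = 0.016) and was at -0.40 without Cre- replicate 3 and -0.43 without Cre+ replicate 2 (adjusted p = 0.093 and 0.054). Cyp2c55 fell by 0.56 (adjusted p = 0.024), a call lost without Cre- replicate 1 (-0.41, adjusted p = 0.14) or Cre+ replicate 3 (-0.42, adjusted p = 0.079). The other entry of Cyp2c55, with a Cre- mean of 2.79, was at -0.27 (SE 0.16) at 7 months.

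Cyp51, the lanosterol demethylase of cholesterol synthesis, stood at 9.01, 8.44 and 8.69 in 7-month Cre- and at 7.65, 7.18, 7.22 and 8.08 in Cre+ kidneys. It fell by 1.18 (SE 0.18, 2.27-fold, adjusted p = 0.00014), with no overlap. At 4 months its groups did not overlap either, at 8.54 to 8.76 against 8.21 to 8.53, but the difference of -0.27 did not pass (adjusted p = 0.47). Other genes of cholesterol synthesis and its control, 16 measured, split in direction at 7 months, with 2 higher and 4 lower (median -0.20). Of all genes 11.7% rose and 10.8% fell at that age. Mvd fell by 1.12 and Nsdhl by 0.69 (adjusted p = 0.00033 and 0.00092), whereas the epoxidase Sqle rose by 0.82 and the sterol-sensing regulator Insig1 by 1.03 (adjusted p = 0.0011 and 0.00076).

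Cyp27a1, a mitochondrial hydroxylase of cholesterol and vitamin D, stood at 7.30, 7.92 and 7.92 against 6.88, 6.46, 7.16 and 7.06 at 7 months and fell by 0.82 (SE 0.20, adjusted p = 0.0058), with no overlap. The difference was -1.24 in arrays of high Y-linked values (adjusted p = 0.00056) and -0.19 in those of low values, with 1 Cre- array (adjusted p = 0.53), and the test between the kinds of array did not pass (-1.05, adjusted p = 0.22). Among the 6 members of cholesterol and bile acid turnover it was the 1 that fell and Cyp39a1 the 1 that rose. Cyp46a1, Cyp7a1, Cyp7b1 and Cyp8b1 were not called at either age.

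In family 4, whose members hydroxylate fatty acids, 2 of 20 rose (Cyp4f39 and Cyp4v3) and 2 fell at 7 months, close to the shares of all genes (11.7% and 10.8%). Cyp4a31 stood at 9.97, 10.04 and 9.80 in 7-month Cre- and at 9.20, 9.08, 9.06 and 9.25 in Cre+ kidneys and fell by 0.79 (SE 0.14, 1.73-fold, adjusted p = 0.00034). The spread within its groups was small, with SDs of 0.12 and 0.09. Cyp4f13 fell by 0.48 (SE 0.11, adjusted p = 0.0052), from 7.81 to 8.17 in Cre- to between 7.40 and 7.65 in Cre+ kidneys. Its 4-month groups did not overlap, but the difference of -0.28 did not pass (adjusted p = 0.19).

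The 2 remaining falling members stood at background. Cyp2c69 had Cre- values of 4.16, 3.42 and 3.61 and Cre+ values of 2.51, 2.45, 2.64 and 2.59 at 7 months, a fall by 1.18 (adjusted p = 6e-05). Cyp3a25 had a Cre- mean of 2.15 and a Cre+ mean of 1.64, a fall by 0.51 (adjusted p = 0.044). The call of Cyp3a25 was lost in 9 of 15 fits that left out 1 array, with adjusted p up to 0.27, and kept without 4-month Cre- replicate 1 or 4, 4-month Cre+ replicate 2 or 4, 7-month Cre- replicate 1 or 7-month Cre+ replicate 3.

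In the comparison of the groups alone 0 of the 3 vitamin D enzymes passed at either age, and Cyp27b1 passed at 4 months once the Y-linked class was a second factor. Cyp24a1, which degrades vitamin D, stood at 8.42 to 9.77 in 4-month Cre- and 7.73 to 8.67 in 4-month Cre+ kidneys (-0.38, adjusted p = 0.62) and at 8.75 to 9.56 and 8.19 to 9.34 at 7 months (-0.44, adjusted p = 0.42). Cyp27b1, which activates it, stood at 5.88, 5.31, 6.52 and 5.17 against 6.02, 6.48, 6.92 and 6.47 at 4 months (0.76, adjusted p = 0.17, and 0.029 with the class as a second factor) and was at 0.40 at 7 months (adjusted p = 0.40). Cyp2r1, the first hydroxylase of the pathway, was at 0.06 and -0.30 (adjusted p = 0.95 and 0.55). At 4 months Cyp2r1 went from 4.88 and 5.14 to 4.5 and 4.59 in arrays of high Y-linked values. In those of low values it went from 5.16 and 5.44 to 5.87 and 5.9. Among 13 other measured genes of vitamin D and calcium handling 1 rose and 9 fell at 7 months, beside 11.7% and 10.8% of all genes. The vitamin D receptor Vdr fell by 0.92, the phosphate and vitamin D regulator Kl by 1.60 and the calcium buffer Calb1 by 1.61 (adjusted p = 2.6e-05, 6.7e-07 and 4.2e-05), and the calcium channel Trpv6 rose by 1.15 (adjusted p = 0.00026).

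The retinoic acid hydroxylases Cyp26a1, Cyp26b1 and Cyp26c1 were not called in either Cre comparison and lay between -0.35 and 0.01 at 7 months. Cyp1a1, the classic target of the aryl hydrocarbon receptor, was at -0.06 and 0.03 (adjusted p = 0.91 and 0.94), with group means from 3.95 to 4.09. Cyp1a2, the other Cyp1a member, was at 0.02 and -0.13 (adjusted p = 0.95 and 0.47). Cyp1b1 and Cyp2s1, which the same receptor is known to induce, were called higher at 7 months. The receptor gene Ahr itself was also called higher (0.74, SE 0.12, adjusted p = 0.00017). A part of the receptor in these differences was not tested.

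The difference of the Cre effect between the ages passed for 3 members, all more negative at 7 months. Among all genes 0.96% passed with a positive and 1.18% with a negative difference. Cyp2d12 differed by -3.12 (SE 0.65, adjusted p = 0.019), Cyp4f39 by -1.10 (SE 0.27, adjusted p = 0.046) and Cyp4a31 by -0.75 (SE 0.18, adjusted p = 0.044). Cyp2d12 and Cyp4a31 had fallen at 7 months and were at -0.08 and -0.04 at 4 months, and Cyp4f39 was called higher at both ages, by 2.11 and 1.01. These differences use the same arrays as the comparisons at each age. None of the 3 calls was kept in all fits that left out 1 array. That of Cyp2d12 was lost without 7-month Cre- replicate 2 or 3 (-3.08 and -2.76, adjusted p = 0.054 and 0.052), that of Cyp4a31 in 12 of 15 such fits (values from -0.82 to -0.60, adjusted p up to 0.12) and that of Cyp4f39 in 13 of 15 (values from -1.23 to -0.92, adjusted p up to 0.11). The call of Cyp4a31 was kept without 4-month Cre- replicate 1 or 2 or 7-month Cre- replicate 3, and that of Cyp4f39 without 4-month Cre- replicate 1 or 7-month Cre+ replicate 4.

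Between 4 and 7 months 0 members changed in Cre- kidneys, where 1 gene of all those tested passed (0.00451%). By an unadjusted p under 0.05, 2 members were higher and 0 lower in limma, and 1 and 0 in the plain linear model. For all 22180 genes these numbers were 296 and 304 in limma, and 308 and 321 in the plain linear model. In Cre+ kidneys 2 members rose and 13 fell from 4 to 7 months, against 4.12% and 6.71% of all genes. This comparison shares its 7-month Cre+ arrays with the 7-month Cre comparison and its 4-month Cre+ arrays with the 4-month one. Cyp2s1 rose by 0.59 and Cyp4v3 by 0.53 (adjusted p = 0.016 and 0.033). The falls ranged from 2.03 for Cyp2d12 to 0.41 for Cyp26b1 (adjusted p = 0.0072 and 0.042) and took in Cyp2d26 (1.60), Cyp2c23 (1.24), Cyp4f39 (1.2), Cyp2f2 (1.09), Cyp51 (0.86), Cyp2j11 (0.78) and Cyp4a31 (0.72).

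Several P450 levels in Cre- kidneys followed the split of the arrays by Y-linked values. It is given as a description, with no test, since these classes are not groups of the study. Between the 4 Cre- arrays of high and the 3 of low Y-linked values, 8 members were at least 1 higher without overlap (8.16% of the 98, against 0.528% of all genes) and 4 were at least 1 lower without overlap (4.08%, against 0.257%). Cyp2j13 stood at 10.34 to 10.71 in the high and 4.45 to 4.69 in the low arrays. Cyp7b1, an oxysterol and steroid hydroxylase, stood at 9.78 to 10.36 and 5.30 to 6.04, and Cyp4a12a, which makes a vasoconstrictor product of arachidonic acid, at 7.01 to 8.63 and 3.25 to 4.35. Cyp2d9, Cyp4b1 and Cyp2e1 were higher in the high arrays by 2.89, 2.48 and 2.28. Cyp4a14, another fatty acid hydroxylase of family 4, went the opposite way, at 5.68 to 7.86 in the high and 10.47 to 10.70 in the low arrays. Cyp2d26, Cyp4f14 and Cyp2c23 were also lower in the high arrays, by 1.25, 1.07 and 1.02 on the means.

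**Figure D5:**
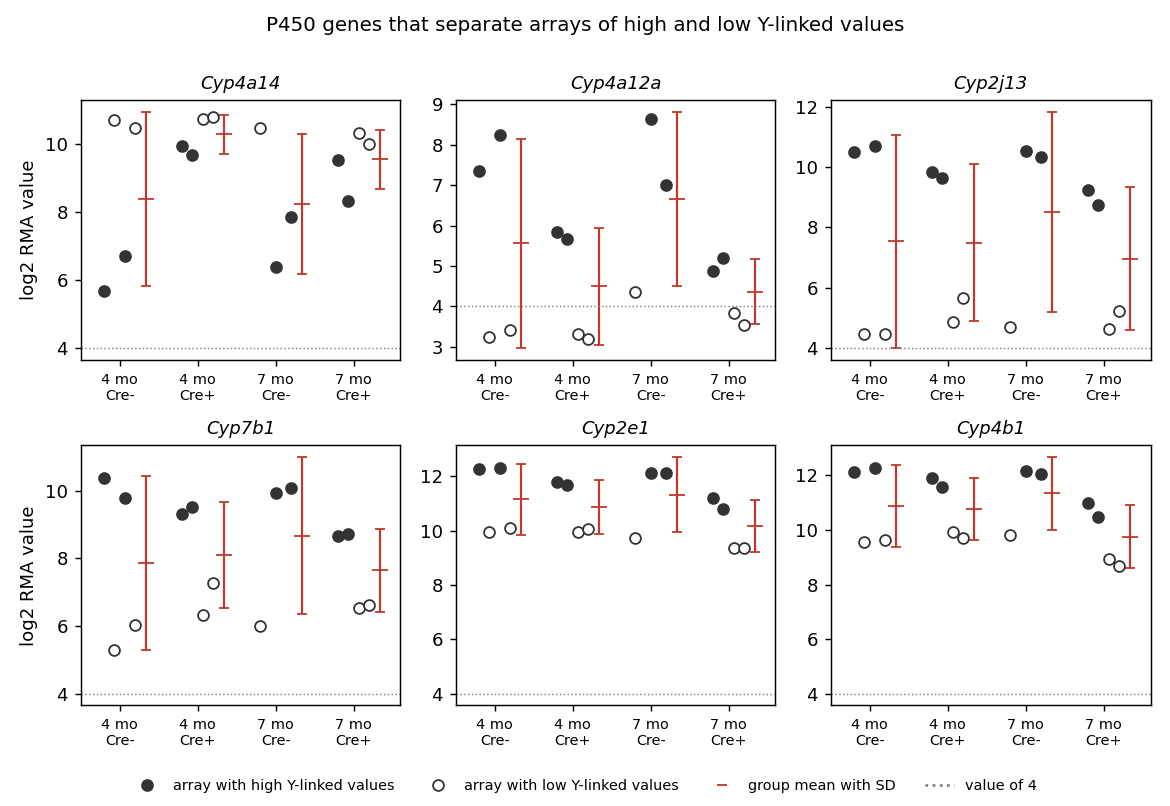
Log2 RMA values of 6 members in the 4 groups, with 1 point per mouse, filled for arrays with high and open for arrays with low Y-linked values, and bars for the group mean and SD. Filled and open points lie apart in every Cre- group, and for Cyp4a14 at 4 months the filled points stand at 9.95 and 9.67 in Cre+ and at 5.68 and 6.72 in Cre- kidneys.

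Over both kinds of array together Cyp2j13, Cyp7b1, Cyp4a12a, Cyp4a14, Cyp2d9, Cyp4b1 and Cyp2e1 were not called in either Cre comparison, as for Cyp4a14 at 4 months (1.90, SE 0.97, adjusted p = 0.36). Within the arrays of high Y-linked values, with 2 mice in each group, 2 members rose and 3 fell at 4 months, against 1.23% and 0.978% of all genes. Cyp4a14 rose by 3.61 (SE 0.47, 12.2-fold, adjusted p = 0.002), from 5.68 and 6.72 to 9.95 and 9.67. Cyp4a12a fell by 2.03 (SE 0.42, adjusted p = 0.028), from 7.34 and 8.23 to 5.85 and 5.67. Cyp2j9 and Cyp2j13 fell by 1.0 and 0.87 (adjusted p = 0.013 and 0.037), and the other rise was that of Cyp4f39 (2.00).

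At 7 months in the same kind of array 6 members rose and 22 fell, against 6.93% and 8.23% of all genes. Cyp4a14 rose by 1.81 (SE 0.47, adjusted p = 0.023), from 6.38 and 7.86 to 9.53 and 8.34. Among the members that were high in these arrays, Cyp4a12a fell by 2.77, Cyp2d9 by 1.95, Cyp2j13 by 1.44, Cyp4b1 by 1.38, Cyp7b1 by 1.32 and Cyp2e1 by 1.12 (adjusted p = 0.00088, 0.00012, 0.00036, 0.0005, 0.00076 and 0.00071). Cyp2d12 went from 9.61 and 10.24 to 7.06 and 6.09. Cyp4a12b went from 7.22 and 7.32 to 6.92 and 6.53, and at 4 months from 6.60 and 6.66 to 6.50 and 6.89. These members were grouped by Cre- arrays that are also the baseline here, so the falls are not independent of the grouping. The same holds for the rises of Cyp4a14 at both ages and for the 4-month falls of Cyp4a12a and Cyp2j13.

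Within the arrays of low Y-linked values 3 members rose and 1 fell at 4 months, against 1.9% and 0.212% of all genes. Cyp27b1 rose by 1.46 (SE 0.21, 2.75-fold, adjusted p = 0.01), from 5.31 and 5.17 to 6.92 and 6.47, beside Cyp4f39 (2.22) and Cyp1b1 (0.98). The member that fell was Cyp2d34 (by 0.76), named after its value was seen. At 7 months, where 1 Cre- array of this kind is assumed to vary like the other groups, 5 members were called higher and 15 lower, against 8.26% and 5.52% of all genes. These 7-month calls have no replicate on the Cre- side. Cyp4a14 was at 0.19 and -0.31 in these arrays at the 2 ages (adjusted p = 0.56 and 0.35). Other members called at 7 months over all arrays were not called in 1 or both kinds of array. In arrays of low Y-linked values Cyp2u1 was at -0.18, Cyp3a25 at -0.12, Cyp2j9 at -0.47, Cyp4f39 at 0.87, Cyp2s1 at 0.60 and Cyp2a5 at -0.71 (adjusted p from 0.058 to 0.72). In arrays of high values Cyp20a1 was at 0.19 (adjusted p = 0.54), and Cyp2c55 and Cyp4f13 were not called in either kind. The 4-month difference of Cyp1b1 was 0.45 in arrays of high values, where it was not called, and that of Cyp39a1 was 0.60 and 0.64 in the 2 kinds, called in neither.

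The difference of the Cre effect between the 2 kinds of array was itself tested, and 0 of the 98 members passed at either age, against 0.0586% of all genes at 4 months and 0.0541% at 7 months. By an unadjusted p under 0.05, 20 members differed at each age. The number of all genes at that limit was not counted, so this count is not read as a result about the family. Cyp4a14 differed by 3.42 at 4 months (SE 0.62, adjusted p = 0.073), Cyp2j13 by -1.65 (SE 0.35, adjusted p = 0.11) and Cyp7b1 by -1.78 (SE 0.40, adjusted p = 0.13). At 7 months the values of Cyp2j13 and Cyp7b1 were -1.66 and -1.90 (adjusted p = 0.21 for both). Cyp2r1 differed by -1.06 (SE 0.22, adjusted p = 0.099) and Cyp27b1 by -1.40 (SE 0.37, adjusted p = 0.19) at 4 months. So a response in 1 kind of array only is not shown for these genes.

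A fit with the Y-linked class as a second factor, added after the data were seen, kept all 15 arrays and called 5 members higher and 4 lower at 4 months. Besides the 3 called before, Cyp4a14 (1.90, SE 0.31, adjusted p = 0.0018) and Cyp27b1 (0.76, SE 0.19, adjusted p = 0.029) were higher, and Cyp4a12a (-1.06), Cyp2f2 (-0.63), Cyp2c69 (-0.48) and Cyp2j9 (-0.47) were lower. At 7 months it called 6 higher and 24 lower, among the latter Cyp4a12a (-1.72), Cyp4b1 (-1.19), Cyp2d9 (-1.12), Cyp2e1 (-0.75) and Cyp2j13 (-0.61), each with an adjusted p of at most 0.035. Cyp7b1 (-0.37) was not called there. The shares of all genes in this fit are not given here, so its counts are not read as a result about the family.

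Some partners of the P450 enzymes were called at 7 months, when 11.7% of all genes rose and 10.8% fell. Of 7 measured electron carriers 0 rose and 3 fell, Cyb5a by 1.04, Fdx1, which serves mitochondrial members, by 0.78 and Cyb5b by 0.65 (adjusted p = 0.0033, 0.0031 and 0.0017). Of 11 genes of heme synthesis and breakdown 1 rose and 6 fell, among the latter Cpox (by 0.85), Alad (by 0.81) and Blvra (by 0.72), while the heme oxygenase Hmox1 rose by 0.55 (adjusted p = 0.025). Of 25 transcription factors and receptors known to act on P450 genes 1 rose (Ahr) and 8 fell, with Hnf4a falling by 1.25, Ppara by 1.19 and Nr1h4 by 1.02 (adjusted p = 6.4e-07, 7.7e-06 and 0.0075). Ppara was lower at 4 months too (-0.52, SE 0.13, adjusted p = 0.028). The list medians were -0.36, -0.42 and -0.17, where the median of all genes was -0.04.

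The shares of all genes at 7 months were 11.7% higher and 10.8% lower. Other genes of drug metabolism, 22 measured, had 2 higher and 11 lower at 7 months (median -0.79). The aldehyde oxidase Aox3 rose by 1.99 at 4 and 2.59 at 7 months (adjusted p = 0.00011 and 2.8e-06) and Aox1 by 0.71 and 0.63, whereas Ugt2b38 fell by 2.85, Nat8 by 1.93 and Ces1d by 1.61 at 7 months. Of 13 other genes of eicosanoid synthesis 4 rose and 1 fell, with Ptgds up by 1.89 and Tbxas1, a P450-type thromboxane synthase under another name, up by 0.97 (adjusted p = 0.0029 and 0.00017), and Ptges down at -0.64. In retinoid handling 2 of 14 rose and 1 fell (Aldh1a1 1.23, Rdh10 0.65, Lrat -0.62), and among 12 other steroid enzymes 2 rose and 2 fell, Hsd3b2 by 2.51 and Hsd11b1 by 0.91. Both counts are near the shares of all genes.

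Cell markers moved alongside. Over all genes 11.7% rose and 10.8% fell at 7 months, and 2.73% and 0.803% at 4 months. Of 24 proximal tubule markers 1 rose and 19 fell at 7 months (median -1.34), and array means went from between 10.49 and 10.86 in Cre- to between 9.13 and 9.89 in Cre+ kidneys, with 0 markers under 4 in Cre- kidneys. At 4 months 1 rose and 3 fell (median -0.32). Of 15 macrophage markers, 2 of them under 4 in Cre- kidneys, 14 rose at 7 months (median 1.49; array means 5.44 to 5.82 against 6.93 to 7.20), and of 10 fibroblast markers 6 rose (median 0.88; 6.70 to 7.12 against 7.90 to 8.09). Of 10 hepatocyte markers, 3 of them under 4 in Cre- kidneys, 4 fell (median -0.46), and of 7 thick ascending limb markers 4 fell (median -0.82). The part of these cell types in the P450 differences was not tested, and in whole kidney fewer cells of a type and less RNA per cell cannot be told apart.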

How the data were processed

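Whole kidneys of 15 mice were measured on 1 Affymetrix array each. The authors deposited log2 values, which the submitters' processing notes describe as RMA values made in Partek 6.6; RMA corrects background, normalises between arrays and summarises probes, so a general shift of all genes can be removed. The genome build was not given in the sources used here. Groups and replicate numbers were taken from the sample titles. Of 41345 entries, 23521 carried 1 gene symbol, and the entry of the highest mean was kept for each gene, leaving 22180 genes. limma 3.58.1 (R 4.3.3) fitted all 15 arrays with 1 mean per group and empirical Bayes moderation, and p-values were adjusted by the Benjamini-Hochberg method. The fit was tested on simulated data. Tables and plots were made with Python 3.11.15, pandas 2.3.3, numpy 2.4.6 and matplotlib 3.10.9.

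Named members were those called in a comparison, a list of well-known kidney members, the 10 of the highest Cre- mean, the 3 largest differences that did not pass and the 8 largest differences between Y-linked classes. From the other lists up to 3 called genes per direction were named. The members and lists were chosen with earlier results of these data known. Cyp4a10, whose entries name several genes, was not analysed here. Arrays were classed as high or low by the mean of Eif2s3y, Kdm5d and Uty, split at 5. Alternatives were another normalisation or centring, a filter keeping the 12296 genes with a value of 4.9 in at least 3 arrays, other variance models, the Y-linked class, a replicate block and leaving out each array.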

Additional observations from a re-analysis of the deposited data

Results flagged for a closer look

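In 7 of 114 tested sets of 4 arrays, 1 array stood far from the other 3 by Dixon's criterion, which chance meets in about 1 in 20 sets. In 4-month Cre- kidneys these were Cyp24a1 at 9.77 in replicate 2 (the others 8.34 to 8.49), Cyp2s1 at 6.17 in replicate 1 (the others 6.62 to 6.66) and Cyp4f13 at 7.82 in replicate 1 (the others 8.06 to 8.10). In 4-month Cre+ kidneys it was Cyp4v3 at 5.81 in replicate 1 (the others 6.30 to 6.37). In 7-month Cre+ kidneys these were Cyp2d12 at 7.06 and Cyp2f2 at 5.05, both the highest and both in replicate 1, and Cyp4v3 at 6.51 in replicate 2 (the others 6.80 to 6.82).

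The Cre effect differed between the ages by an interaction test for Cyp2d12 (-3.12, SE 0.65, adjusted p = 0.019 in limma), Cyp4f39 (-1.10, SE 0.27, adjusted p = 0.046) and Cyp4a31 (-0.75, SE 0.18, adjusted p = 0.044).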

How the results depend on the processing

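Over 29 alternatives, 15 of which left out 1 array, 0 named gene results reversed, 17 of 30 called ones lost their call under at least 1 alternative and 18 of 49 others gained one. The 3 members called higher at 4 months became 1 in the plain linear model and 5 with the Y-linked class as a second factor, and 1 to 4 when 1 array was left out. The 0 members called lower at 4 months became 1 after median centring, 2 with the Y-linked covariate, 3 in arrays of high and 1 in arrays of low Y-linked values, and 4 with the class as a second factor. The 3 members whose Cre effect differed between ages became 5 with the filter on dim genes, 0 in the plain linear model, 11 with the Y-linked covariate, 1 in arrays of high Y-linked values, 11 with the class as a second factor, and 0 to 3 when 1 array was left out. The 15 members that differed between ages in Cre+ kidneys became 9 in the plain linear model, 23 with the Y-linked covariate, 6 in arrays of high Y-linked values and 28 with the class as a second factor. These counts stand without the shares of all genes in the same fits, and the cause of the shifts was not tested. In fits of only the groups compared, Cyp39a1 at 4 months and Cyp20a1, Cyp2c55 and Cyp3a25 at 7 months lost their calls. With the replicate block 3 members were higher and 0 lower at 4 months, 6 higher and 17 lower at 7 months, and 4 differed between ages, and Cyp3a25 at 7 months and the age difference of Cyp4a31 lost their calls. Samples of the same number correlated at over 0.1 in 11 of 21 pairs (from -0.469 to 0.298). Those 11 pairs were of the same Y-linked class, and the other pairs, of unlike class, had negative correlations. The check therefore cannot decide whether samples of the same number were paired. Members near background, 49 of 98, limit what can be seen, and the class fits rest on 1 or 2 arrays per group.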
